A study of Mus musculus with 31 samples.

Results

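The 4 Hox clusters hold the homeobox genes that give cells their position along the body axis, and DNA methylation was followed across them in oocytes of growing mouse follicles. The members are the CpG sites listed inside a fixed window around each cluster in mouse build mm9, 165 kb for HoxA, 190 kb for HoxB, 130 kb for HoxC and 130 kb for HoxD. The first and last listed sites are chr6:52102988-52264284 in HoxA, chr11:96051305-96229458 in HoxB, chr15:102751093-102872168 in HoxC and chr2:74480281-74601683 in HoxD. They number 3291 of 1419929 sites in all, with 925 in HoxA, 726 in HoxB, 598 in HoxC and 1042 in HoxD. Oocytes of B6D2F1 mice, a cross of the C57BL/6 and DBA/2 strains, were profiled by reduced representation bisulfite sequencing. In that assay MspI cuts DNA at CCGG, so mostly CpG-rich sequence is read, and bisulfite converts unmethylated cytosine. The 31 libraries fall into 9 stages of follicle growth, with primordial follicles as Type1 and Type2, primary as Type3a and Type3b, secondary as Type4, Type5a and Type5b, and antral as Type6 and Type7. Type4 and Type5a had 5 libraries each and every other stage had 3. All libraries share the same strain cross and the labels name no treatment. The labels do not say that a stage's libraries come from different animals, so a p-value here reflects library-to-library spread, part of which may be technical.

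Hox genes lie in tandem in the order of their paralog groups, and their promoters sit in long CpG-rich stretches that are usually free of DNA methylation. Mouse oocytes start growth with little methylation and gain it before ovulation, mostly across transcribed DNA, while CpG islands are mostly left unmethylated. In many cell types silent Hox clusters carry Polycomb marks, which are histone modifications and not DNA methylation.

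The promoters of the genes show what kind of sequence is meant. Of 41 listed genes (39 Hox genes and the even-skipped homologs Evx1 and Evx2), 24 had a promoter in the RefSeq table of GRCm38.p6, and 11 of these could be placed among the mm9 sites by the spacing of their CpGs and the bases around them. Each sequence runs from 250 bases before to 50 bases after the start of the gene, 5′ to 3′ on the gene's strand, and capitals mark the CpGs that the deposited files list. Hoxa6 and Hoxa13 are shown as HoxA promoters without a methylated read, and Hoxd1 as the Hox promoter with the most reads. The Hoxa6 promoter (chr6:52158622-52158921, minus strand) holds 13 listed CpGs of 26, the Hoxa13 promoter (chr6:52210825-52211124, minus strand) 5 of 45, and the Hoxd1 promoter (chr2:74600787-74601086, plus strand) 21 of 29.
Hoxa6: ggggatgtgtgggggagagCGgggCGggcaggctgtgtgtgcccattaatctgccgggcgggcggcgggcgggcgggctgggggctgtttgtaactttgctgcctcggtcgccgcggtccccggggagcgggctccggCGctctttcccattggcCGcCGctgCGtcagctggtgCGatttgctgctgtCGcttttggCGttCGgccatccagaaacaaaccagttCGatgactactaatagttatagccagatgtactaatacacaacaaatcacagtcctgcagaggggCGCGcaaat
Hoxa13: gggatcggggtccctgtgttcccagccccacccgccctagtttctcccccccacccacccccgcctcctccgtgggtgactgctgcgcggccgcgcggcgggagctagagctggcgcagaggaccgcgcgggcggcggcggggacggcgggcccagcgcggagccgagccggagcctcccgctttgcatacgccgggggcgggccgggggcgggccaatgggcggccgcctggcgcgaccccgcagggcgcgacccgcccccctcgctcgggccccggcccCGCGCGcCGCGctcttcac
Hoxd1: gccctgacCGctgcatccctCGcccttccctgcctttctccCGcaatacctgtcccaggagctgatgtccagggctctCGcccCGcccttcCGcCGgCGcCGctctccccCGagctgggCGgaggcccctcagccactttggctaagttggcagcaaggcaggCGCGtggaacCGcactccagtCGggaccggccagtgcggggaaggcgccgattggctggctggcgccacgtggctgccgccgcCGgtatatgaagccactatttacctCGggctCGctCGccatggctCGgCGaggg

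Libraries held 7949652 to 60361665 reads over CpG sites, and 296800 to 775364 sites with at least 5 reads. The level of a 100-bp tile is its methylated reads over all reads, summed over sites with at least 5 reads, in tiles with at least 3 such sites. Reads of a tile or promoter are thus counted at each site, and a read that covers several CpGs is counted more than once. The clusters held 416 such tiles, of which 69 had values from at least 2 libraries in each of the 9 stages; these common tiles (23 in HoxA, 16 in HoxB, 11 in HoxC and 19 in HoxD) give the cluster levels. In 9 libraries CpG-dense tiles of the X chromosome lay above CpG-dense autosomal tiles: 2 of Type6 (replicates 1 and 2), 2 of Type5a (5 and 7), 3 of Type4 (1, 2 and 5), 1 of Type3a (1) and 1 of Type1 (3). Those libraries are named where they carry a high Hox value, and their part in it was not tested.

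The mean level of the HoxA window rose late in follicle growth, while no stage mean of the other 3 clusters exceeded 6.55%. The rise came from tiles at the far end of the window, past the placed Hoxa13 promoter, and the other HoxA tiles stayed low (below). The mean level of HoxA was 1.97% ± 1.29 in Type1, 1.37% ± 0.104 in Type2, 1.90% ± 1.73 in Type3a, 1.90% ± 1.46 in Type3b, 3.10% ± 1.83 in Type4 and 3.64% ± 2.75 in Type5a. It reached 17.7% ± 4.70 in Type5b, was 17.9% ± 4.34 in Type6 and stood at 24.4% ± 8.06 in Type7 (SD over libraries, n = 5 for Type4 and Type5a and 3 otherwise). The 9 libraries of Type5b to Type7 lay between 12.5 and 33.1% and the 22 libraries of Type1 to Type5a between 0.264 and 7.91%, so the 2 sets did not overlap. The level is a mean over tiles, so it depends on which tiles enter: it averaged 12.2% in Type7 and 1.59% in Type1 over every tile a library measured.

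HoxB, the cluster with the longest window, ran between 0.796% in Type2 and 3.15% in Type5a by stage mean. Its highest library was Type5a replicate 6 at 8.90%, and the 9 libraries of Type5b to Type7 stayed at or under 2.63%. HoxC ran between 0.328% in Type7 and 6.55% in Type6. Its highest library was Type6 replicate 2 at 14.5%, where HoxA stood at 14.2%, and the other 2 Type6 libraries were at 2.23 and 2.87%. All 3 Type6 libraries lay above every HoxC library of Type5b (at most 1.27%) and of Type7 (at most 0.747%). HoxD, the cluster with the most sites per kb, ran between 1.06% in Type2 and 3.82% in Type6, with Type6 replicate 2 again highest at 6.66%. Libraries of Type7 and Type1 overlapped in HoxB and HoxD; in HoxC the 3 Type7 libraries (0, 0.238 and 0.747%) lay below the 3 Type1 libraries (1.04, 1.97 and 2.99%), but over every tile a library measured the HoxC difference had the other sign, at 1.62 points. Over the same stages the mean of 37657 common autosomal tiles was 33.0% ± 0.392 in Type7 and 16.9% ± 4.06 in Type1 (n = 3 each). In the 100 kb on each side there were few common tiles, 2 beside HoxB, 3 beside HoxC, 5 beside HoxD and 2 beside HoxA. They averaged 0.280% in Type7 and 0.336% in Type1 beside HoxB, and 0.831% and 1.73% in these stages beside HoxC. Beside HoxD they averaged 0.434% and 1.27%, and beside HoxA 67.1% and 2.20%, in the same order. Beside HoxB single libraries of other stages were higher, up to 39.5% in Type3a replicate 1. Cluster means were not tested, because they are means over chosen members.

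**Figure D1:**
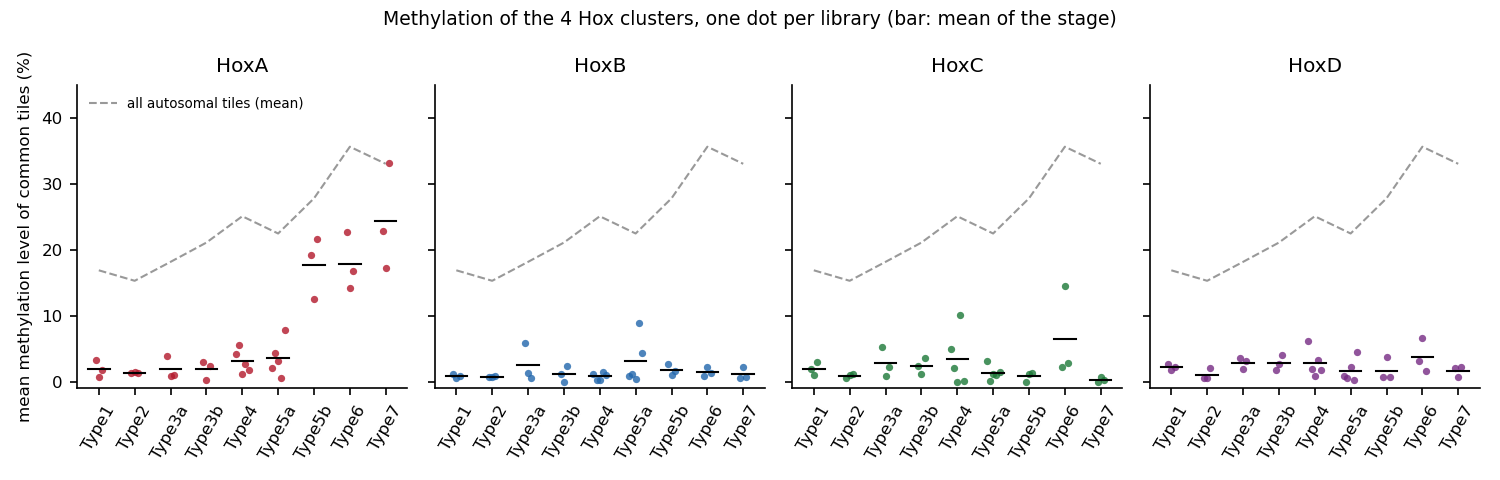
Mean methylation level of the common tiles of each Hox cluster (y axis, percent) in each library (dots) over the 9 stages (x axis), with the stage mean as a bar and the mean of all autosomal tiles as a dashed line. HoxA libraries of Type5b to Type7 sit between 12.5 and 33.1%, above all earlier ones, while the other 3 clusters stay at or under 14.5%.

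Tile by tile, all calls between the latest and the earliest stage fell in HoxA. Between Type7 and Type1, 7 of 42 HoxA tiles were called higher and 0 of 30 in HoxB, 0 of 14 in HoxC and 0 of 38 in HoxD, by a quasi-binomial test with adjusted p under 0.05 and at least 20 points of difference. Of all 58522 tiles tested, 17.7% were called higher and 0.159% lower. The share called higher in HoxA, 16.7%, was thus near that of all tiles, while over the 4 clusters it was 5.65%. No Hox tile was called lower, and limma called the same number of HoxA tiles, 7. An unadjusted p under 0.05 was found for 5 HoxB, 1 HoxC and 5 HoxD tiles, and limma also called 0 in these clusters; over the 4 clusters it was 21 of 124 tiles, against 32% of all tiles. The median difference over the 124 Hox tiles was 0 points, and 99 of them lay within 5 points.

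The 7 called tiles all lay at the far end of HoxA, and the other measured tiles of the cluster stayed low. They span chr6:52241401-52260800, 19.4 kb that start 141 kb into the window, and this stretch is called the distal block below. It was not read throughout, since these 7 were the only tiles measured in it. They start at chr6:52241401 and 52241501, at 52256201, and from 52260401 to 52260701. The sequence between these places has no level, and the places differed in their course over the stages. In RefSeq's gene order Hoxa13, the last Hox gene of the cluster, is followed by the noncoding RNA gene Hottip and then by Evx1, a homeobox gene; neither of these promoters was placed, so no tile is assigned to a gene. The block starts 30.3 kb past the placed Hoxa13 promoter. Since the Type7 and Type1 values chose the block, they are given as a description: over its 6 common tiles it averaged 87.5% ± 8.47 in Type7 and 0.187% ± 0.165 in Type1. The other 17 common HoxA tiles averaged between 0.863% in Type2 and 3.43% in Type6, with 1.41% ± 1.38 in Type7 and 2.57% ± 1.62 in Type1.

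**Figure D2:**
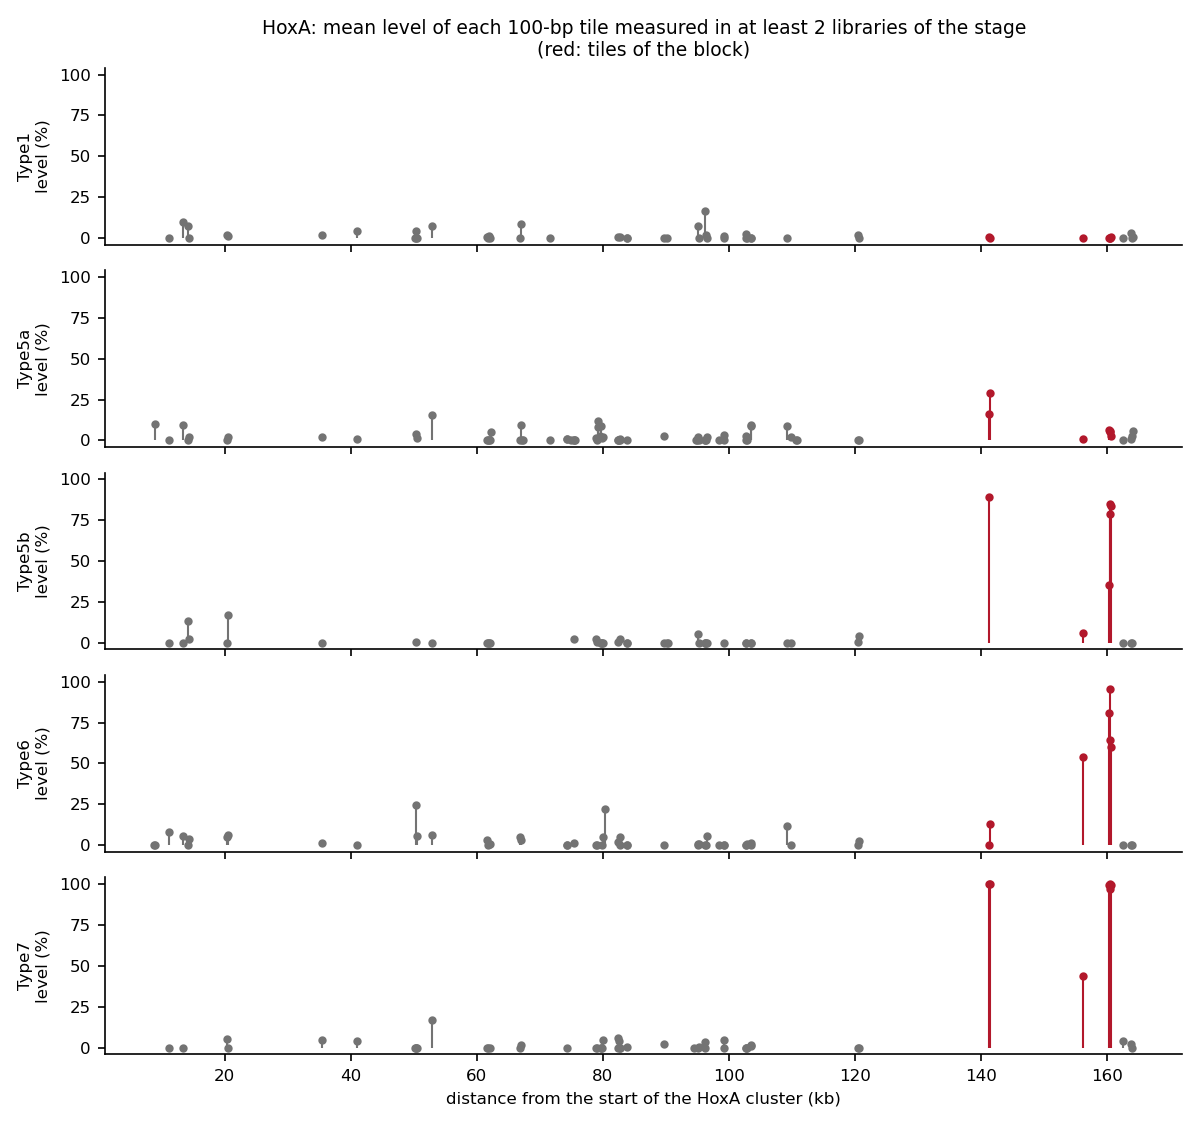
Mean level of each HoxA tile (y axis, percent) against its distance from the start of the cluster (x axis, kb) in Type1, Type5a, Type5b, Type6 and Type7, for tiles measured in at least 2 libraries of the stage. Tiles of the distal block are red; in Type7 all 7 of them stand above the grey tiles, which stay at or under 16.7% along the cluster.

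Not every library measured all 6 common tiles of the block. Type4 replicate 4 measured 2, Type7 replicate 2 measured 4 and Type6 replicate 1 measured 5, so the block level depends partly on which tiles entered. Through the stages that did not choose it, the block was at 2.80% ± 0.156 in Type2, 0.984% ± 0.986 in Type3a, 0.557% ± 0.832 in Type3b, 2.56% ± 2.69 in Type4 and 6.21% ± 3.60 in Type5a, then at 62.4% ± 12.1 in Type5b and 61.5% ± 14.5 in Type6. The main step thus lay between Type5a and Type5b, both oocytes of secondary follicles. Between those stages 5 HoxA tiles of 47 were called higher and no tile was called lower, against 4.9% of all 65397 tiles called higher and 0.171% lower. All 5 lay in the block, where limma called 4, and 0 of 30 HoxB, 0 of 19 HoxC and 0 of 43 HoxD tiles were called. An unadjusted p under 0.05 was found for 5 HoxB, 2 HoxC and 6 HoxD tiles, and limma called 0 of them; over the 4 clusters it was 26 of 139, against 19.4% of all tiles. The call rests on the spread shared by all stages: a fit on Type5b and Type5a alone called 0 Hox tiles and 0.249% of all tiles.

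The 4 tiles at chr6:52260401-52260800 carried most of that step. At chr6:52260501-52260600 the level was 89.5, 53.8 and 93.2% in Type5b, against 4.19, 7.39, 7.83 and 2.80% in the 4 Type5a libraries that measured it. The stages did not overlap, and the difference was 73.3 points (quasi-binomial test, adjusted p = 8.2e-06). At chr6:52260601-52260700 the Type5b libraries read 94.7, 97.6 and 62.1% and the Type5a libraries 0.730, 0, 9.30 and 10.8%, a difference of 79.6 points (adjusted p = 0.00448, higher in 3 of 3 libraries). At chr6:52260701-52260800 they read 70.7, 80.3 and 99.7% in Type5b and 0.608, 0, 0 and 10.8% in Type5a, a difference of 80.7 points (adjusted p = 0.00357). All 3 tiles were high in every Type5b library and low in every Type5a library that measured them.

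The first of the 4 tiles was less even. At chr6:52260401-52260500 one Type5b library read 70.2% over 1589 reads and another 1.01% over 595 reads, against 8.48, 0, 8.02, 0 and 15.9% in Type5a, so the stages overlapped. It was called at a difference of 29.1 points (quasi-binomial test, adjusted p = 0.00898), and limma did not call it. In Type6 it stood at 77.5, 86.0 and 78.7%, and in Type7 at 100, 98.6 and 100%, against 0% in all 3 Type1 libraries.

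At the near end of the block the libraries disagreed with one another. At chr6:52241401-52241500 the 2 Type5b libraries that measured it read 100 and 77.8%, against 20.2, 57.9, 1.84, 0 and 0% in Type5a, a difference of 72.9 points (quasi-binomial test, adjusted p = 0.0410). Of 19 alternatives 8 did not call it, with adjusted p up to 1 and 3 of them leaving out a single Type5a library (replicate 1, 5 or 6). The 2 Type5a libraries above 20% were replicates 1 and 4, which read 66.3 and 74.2% at the next tile, chr6:52241501-52241600, where the other 3 read at most 4.41%. Some Type4 libraries also held methylation here, at up to 21.7% in the first tile and 27.7% in the second.

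The same tile went against the order of the stages in Type6. Type6 replicates 2 and 3 read 0% over 157 and 58 reads at chr6:52241401-52241500, against 100 and 77.8% in Type5b, and it was called lower by 88.9 points (quasi-binomial test, adjusted p = 0.0347). It then read 100% in both Type7 libraries that measured it, against 0% in both Type6 libraries, and was called higher by 100 points (adjusted p = 0.005). That was the 1 call in 130 Hox tiles between Type7 and Type6, where 1% of all 61037 tiles were called higher and 0.449% lower. With limma 2 HoxA tiles were called higher. An unadjusted p under 0.05 was found for 24 of the 130, against 16.7% of all tiles, with 6 in HoxB, 1 in HoxC and 7 in HoxD, where limma called 0. Every one of these values rests on 2 libraries a stage, and a fit with the replicate number as a block did not call the Type6 against Type5b difference.

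**Figure D3:**
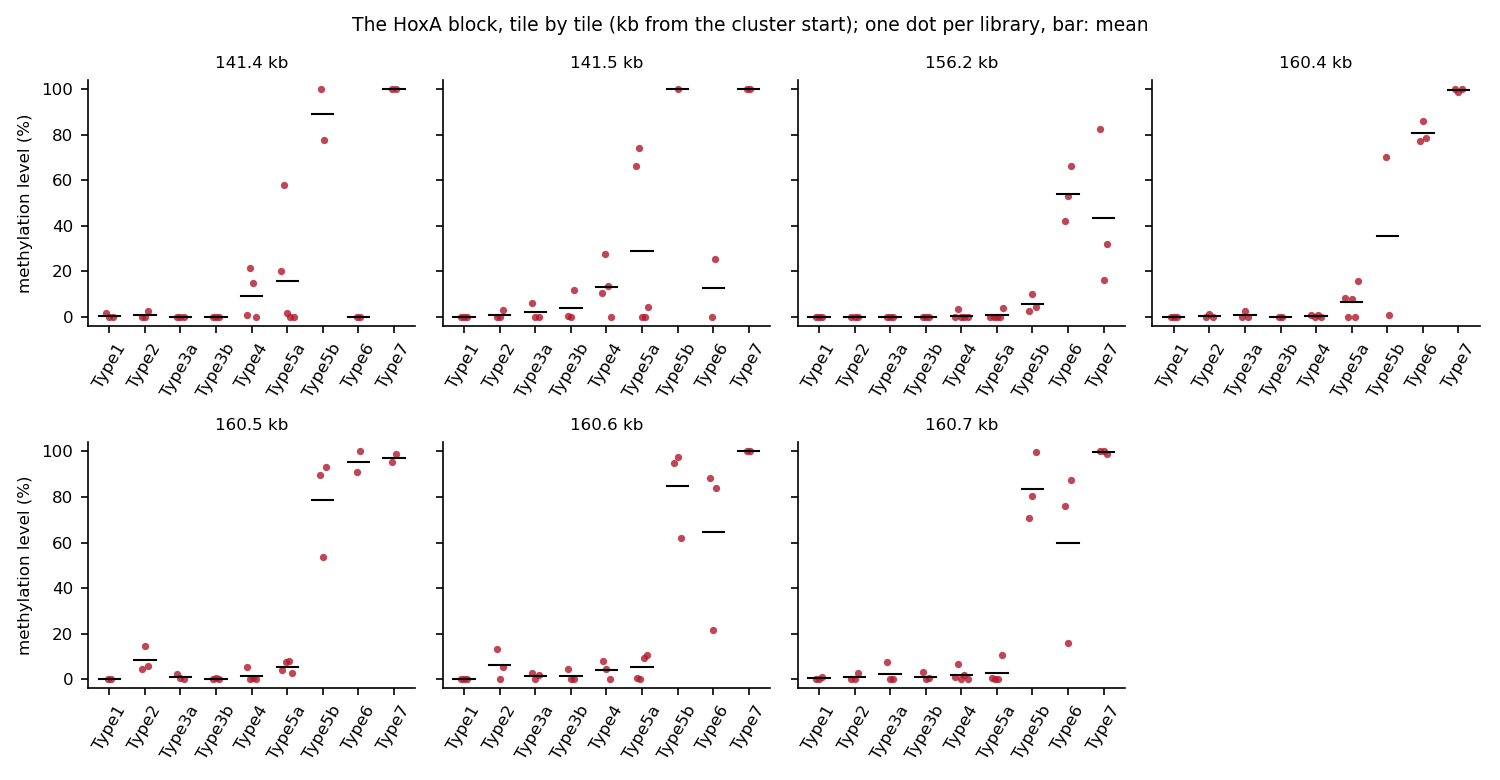
Methylation level (y axis, percent) of the 7 tiles of the distal block in each library (dots, with the stage mean as a bar) over the 9 stages (x axis); panel titles give the distance from the start of the cluster. The last 4 tiles are low through Type5a and high in Type7, the tile at 156.2 kb stays at or under 10.3% through Type5b, and the first 2 tiles drop in Type6 to 0 to 25.5%.

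In the middle of the block a tile was called between Type6 and Type5b. At chr6:52256201-52256300, which all 31 libraries measured, the level was 42.2, 53.3 and 66.4% in Type6, against 2.56, 10.3 and 4.23% in Type5b, a difference of 48.3 points without overlap (quasi-binomial test, adjusted p = 0.000381). Of 20 alternatives 2 did not call it, the fit of those stages alone (adjusted p = 0.12) and the replicate block (adjusted p = 1). The Type7 libraries spread widely, at 82.6, 16.2 and 32.0%, and Type7 and Type6 overlapped. Up to Type5a no library exceeded 4.11%. This was 1 of 2 HoxA tiles called higher among 46 between Type6 and Type5b, where 2.78% of all 61151 tiles were called higher and 0.152% lower; 1 HoxA tile, described above, was called lower. With limma 2 HoxA tiles were called higher and 1 lower. In the other clusters 0 of 27 HoxB, 0 of 20 HoxC and 0 of 40 HoxD tiles were called by either the quasi-binomial test or limma. An unadjusted p under 0.05 was found for 30 of the 133 Hox tiles, against 23.5% of all tiles.

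The other called tile lay outside the block, and 13 of 20 alternatives did not call it. At chr6:52150401-52150500 Type6 read 32.1, 35.3 and 5.65%, against 0, 2.30 and 0% in Type5b, a difference of 23.6 points (quasi-binomial test, adjusted p = 0.0366). The 2 high libraries, replicates 1 and 2, are those of Type6 whose CpG-dense X tiles lay above the autosomal ones. Without those 9 libraries Type6 keeps 1 library, the one at 5.65%, and the difference was 4.89 points. Both Type7 libraries that measured the tile read 0%. Type4 replicate 2 and Type3a replicate 1, also among those 9, read 44.2 and 25.8%.

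Type6 replicate 2 was also low at the far end of the block, where it read 21.4 and 16.1% at the last 2 tiles while the other Type6 libraries read 76.1 to 88.3%. In Type7 the last 4 tiles read 95.2 to 100% in every library that measured them. The high stretch ended inside the window: the 4 tiles from chr6:52262601 onward averaged at most 3.70% in Type7. A separate tile at chr6:52267701-52267800, 2.7 kb past the window, read 100, 100 and 100% in Type7, against 0.583, 0.382 and 12.3% in Type1. It read 40, 56.1 and 71.4% in Type5b, against 33.3, 3.45, 21.7, 0 and 1.05% in Type5a, a difference of 44.0 points (quasi-binomial test, adjusted p = 0.0285). The next tile that was tested, at chr6:52270101-52270200, read 2.59 and 0% in Type7 and 0% in all 3 Type1 libraries.

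Single CpG sites showed the same step. In the block 89.2% ± 4.22 of sites were at least 80% methylated in Type7 and 1.01% ± 1.75 in Type1 (n = 3 each), which again describes the values that chose it. The share was 0% in Type2, 0% in Type3a, 0.775% in Type3b, 0% in Type4, 4.58% ± 7.70 in Type5a, 51.0% ± 17.2 in Type5b and 40.1% ± 14 in Type6. Sites between 20 and 80% made up 35.6% ± 15.0 of the block in Type6 and 21.3% ± 14.7 in Type5b, against 2.94% ± 5.09 in Type7. In HoxB, HoxC and HoxD the share of sites at 80% or more was at most 2.59% in any stage, while over all autosomal sites it was 25.4% ± 1.14 in Type7 and 4.13% ± 0.573 in Type1.

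The block is not CpG-dense by the listed sites, with 60 per kb as the limit. The median was 26 listed sites per kb over HoxA tiles and 19 over all autosomal tiles. Of its 7 tiles, 6 had 20 to 40 listed sites per kb. In this class 6 of 26 HoxA tiles and 12.6% of all tiles were called higher between Type7 and Type1. Those 6 are the block's own tiles, which these calls chose, so the HoxA share is only a description. The tile at 156.2 kb had fewer than 10, a class in which 32.9% of all tiles were called higher. In the class of 20 to 40 sites per kb 0 of 10 HoxB, 0 of 5 HoxC and 0 of 10 HoxD tiles were called.

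No Hox tile was called between adjacent stages up to Type5a. The 5 comparisons (Type2 against Type1, Type3a against Type2, Type3b against Type3a, Type4 against Type3b and Type5a against Type4) tested 779 Hox tile differences in all, with 0 called. Of all tiles 0.0748, 0.0369, 0.0097, 0.161 and 0.198% were called in these 5 comparisons, in that order. An unadjusted p under 0.05 was found for 20, 13, 16, 18 and 29 Hox tiles, 96 in all, against 11.2, 10.4, 7.74, 12.2 and 12.2% of all tiles in the same order. With limma 33 had an unadjusted p under 0.05 and 0 were called.

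Outside the block, the tiles named for standing highest in a cluster differed widely between libraries. At chr2:74480301-74480400 in HoxD, the common HoxD tile highest in Type1, Type7 read 1.16, 0 and 0% and Type1 9.87, 14 and 12.8%. In between it varied widely, and 9 of the 30 libraries that measured it exceeded 20%. Of these, 75.8% in Type6 replicate 2, 60.2% in Type4 replicate 1, 47.8% in Type4 replicate 5, 40.3% in Type5a replicate 7, 23.3% in Type3a replicate 1 and 20.2% in Type5a replicate 5 came from libraries with high X tiles. The values of 36.8% in Type3a replicate 4, 32.0% in Type5b replicate 2 and 21.3% in Type3b replicate 2 did not. The HoxD tile highest in Type7, chr2:74513301-74513400, read 1.92 and 16.7% in the 2 Type7 libraries that measured it and 0, 0 and 0.123% in Type1. The HoxB tile highest in Type7, chr11:96194001-96194100, read 0, 19.4 and 0% in Type7 and 4.48, 0.685 and 2.58% in Type1, with 31.8% in Type3a replicate 1. Highest in Type1 of HoxB was chr11:96147601-96147700, at 8.67 and 0% in Type7 and 12.0, 0 and 2.26% in Type1. In HoxC the tile highest in Type7, chr15:102752001-102752100, read 0, 5.02 and 0% in Type7 and 0, 3.91 and 2.98% in Type1, and the tile highest in Type1, chr15:102794301-102794400, read 0% in all Type7 libraries and 18.6, 0 and 0% in Type1. In HoxA the tile highest in Type1 was chr6:52196301-52196400, at 0, 9.72 and 0% in Type7 and 33.3 and 0% in Type1, where the 33.3% came from 15 reads. None of these 7 tiles was called between Type7 and Type1.

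**Figure D4:**
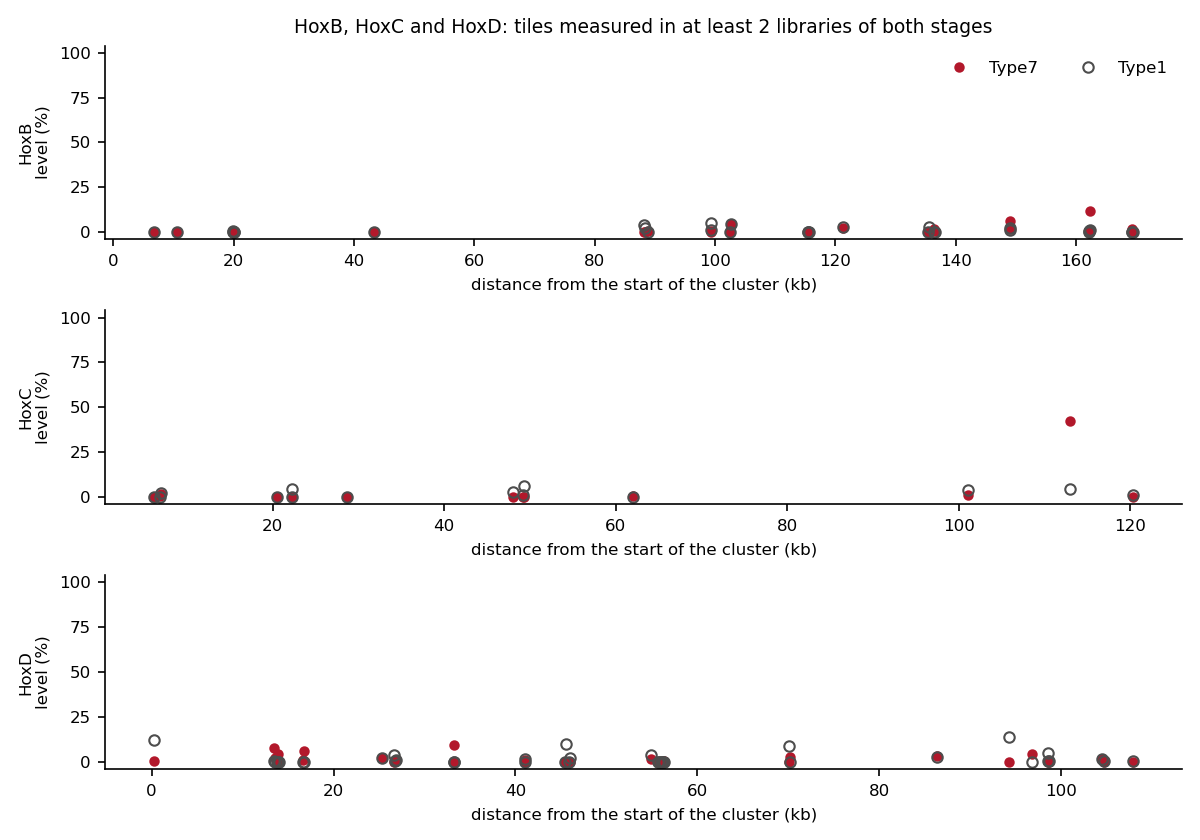
Mean level (y axis, percent) of the tiles of HoxB, HoxC and HoxD measured in at least 2 libraries of both stages, in Type7 (filled) and Type1 (open), against the distance from the start of the cluster (x axis, kb). All tiles but 1 in HoxC stay at or under 13.7% in both stages; that tile averages 42.2% in Type7 and 4.44% in Type1 and was not called, at a difference of 37.8 points.

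Most placed Hox promoters had few or no methylated reads, with many stages covered by 1 library or none. For the HoxA genes, whose products act as homeodomain transcription factors, the Hoxa13 promoter had 0 methylated of 387 reads in 6 libraries. Hoxa6 had 0 of 921 in 5 libraries. If all counts were independent, these would allow levels of up to 0.775% and 0.326%. Neighbouring CpGs can share a read, so the true limits may be higher. Hoxa3 had 0 of 39 reads in 1 library and Hoxa11 0 of 100 in 2 libraries. In HoxD, the Hoxd1 promoter had 39 methylated of 10529 reads in 29 libraries, with 11.1% over 54 reads in Type3a replicate 1 as its highest, and Hoxd9 4 of 1032 in 13 libraries, while Hoxd11 and Hoxd12 each had 0 of 193 reads in 2 libraries. The Hoxb1 promoter, the 1 placed in HoxB, had 15 of 578 reads in 13 libraries, with 12.3% over 65 reads in the 1 Type7 library that measured it, 5.98% in Type4 replicate 5 and 0% in the other 11. Hoxa5 and Hoxd10 were placed but had no site with 5 reads, and none was placed in HoxC. By paralog group, those with reads were Hoxa3, Hoxb1 and Hoxd1 in groups 1 to 3, Hoxa6 in groups 4 to 8, and Hoxa11, Hoxa13, Hoxd9, Hoxd11 and Hoxd12 in groups 9 to 13. The highest single library among all placed promoters was Type1 replicate 1 at the Hoxa11os promoter, an antisense transcript of the Hoxa11 region, at 19.4%, where the other 2 Type1 libraries read 0.378 and 4.35%. The Gm51876 promoter read 14.3% over 28 reads in its 1 Type7 library and the 5730596B20Rik promoter 13% over 92 reads in Type6 replicate 1.

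**Figure D5:**
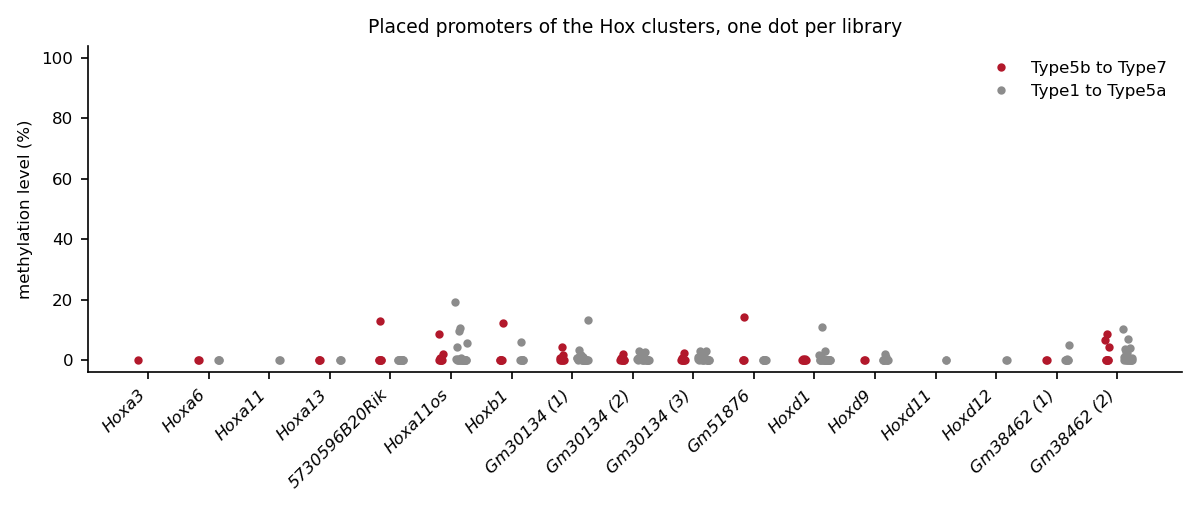
Methylation level (y axis, percent) of each placed promoter with reads (x axis; a number in brackets marks one of several promoters of a gene) in each library, with Type5b to Type7 in red left of Type1 to Type5a in grey. No promoter exceeds 19.4% in any library.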

How the data were processed

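For every listed CpG the deposited files give 2 counts, total reads and methylated reads, and a methylated fraction that the authors derived from them; only the counts were used. The submitters' processing notes name BSMAP 2.89 and mm9. How methylation was called and whether reads were trimmed is not given in the sources used here. Per the labels' protocols, MspI fragments received premethylated adaptors, were bisulfite converted, amplified in 2 rounds of PCR and selected by size. Without molecular identifiers, floors (3 counts of the total) cover counting error only. They also take the counts as independent, although a single read can be counted at several neighbouring CpGs.

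Tiles of 100 bp with at least 3 sites of at least 5 reads were tested with a quasi-binomial model over all 31 libraries, with stage as factor, Pearson dispersion moderated over all tiles by limma's squeezeVar method with 1 as its floor, an F test, and Benjamini-Hochberg adjustment over all tiles measured in at least 2 libraries of both stages. Differences are later minus earlier stage means over libraries. On simulated reads its unadjusted p-values came out too small for unchanged tiles and it made more false calls than limma, whose p-values were close to nominal; limma's counts are therefore given beside its own. After seeing this and the calls, 4 other ways to set the prior of the dispersion were tried, from tiles more than 0, 0.02, 0.05 or 0.1 from the limits of the level. None corrected it, the model was kept as planned, and all 4 are given as alternatives.

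Named tiles are the 5 called with the largest difference per cluster between Type7 and Type1, every called Hox tile in adjacent stages, and the common tile of each cluster highest in Type1 and in Type7. The members and lists were chosen with earlier results of these data known. Same-numbered libraries did not deviate together (median r 0.00502 over 84 pairs). One label gives embryo stages, against the titles, and was set aside. RefSeq promoters (GRCm38.p6) were matched to mm9 sites by CpG spacing and local sequence, with at least 3 matching sites; no coordinates were carried between builds. No gene annotation of mm9 was used. Versions were limma 3.58.1 in R 4.3.3, and matplotlib 3.10.9, pandas 2.3.3, scipy 1.17.1 and numpy 2.4.6 in Python 3.11.15.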

Additional observations from a re-analysis of the deposited data

Results flagged for a closer look

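Of 37 sets of 4 or 5 libraries examined, in Type4 and Type5a, 7 held a library far above the rest by Dixon's criterion. For normally distributed values chance gives about 1 in 20, but levels that cannot fall below 0% do not follow that rate. Where all other libraries read 0%, any level above 0% is flagged. This holds for some of the 7, and for the rest the nearest library read 0.467 to 1.68%. Whether 7 of 37 is an excess for such levels was not tested. In the distal block of HoxA the flagged libraries were Type4 replicate 2 at 3.41% and Type5a replicate 7 at 4.11% at chr6:52256201-52256300, where the other 4 libraries of each stage read 0%. At chr6:52260501-52260600 Type4 replicate 1 read 5.41%, and at chr6:52260701-52260800 Type4 replicate 2 read 6.58% and Type5a replicate 7 read 10.8%. In HoxD, at chr2:74513301-74513400, they were Type4 replicate 6 at 4.62% and Type5a replicate 5 at 8.02%. Of these 7 values 6 came from libraries whose CpG-dense X tiles lay above the autosomal ones, the exception being Type4 replicate 6. Among the 5 libraries of each stage, Type4 replicates 1, 2 and 5 and Type5a replicates 5 and 7 are of this kind. Some of them give more than 1 of the values, and the part of this in the values was not tested.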

How the results depend on the processing

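None of the 14 called differences of HoxA tiles that were recomputed changed direction under the alternatives run for them. This is weak evidence. Alternatives that change only the model, such as limma, keep the same stage means and so the same sign. The others reused these libraries on tiles called for differences of at least 20 points. The tiles named only as highest in Type1 or Type7 were not recomputed. For Type7 against Type1 the count of Hox tiles called was 7, with 4 at 10 reads per site, 4 in 200-bp tiles, 3 in 1000-bp tiles and 13 with 1 site per tile, and 3 to 7 when 1 library was left out (3 without Type7 replicate 3). For Type5b against Type5a it was 5, with 2 in 200-bp tiles, 1 in 1000-bp tiles, 0 when only the stages compared were fitted and 3 with a replicate block, and 2 to 5 with 1 library left out (2 without Type5b replicate 1). For Type6 against Type5b it was 3, with 1 at 10 reads per site, 1 in 200-bp tiles, 1 in 1000-bp tiles, 5 with 1 site per tile, 0 in the fit of those stages alone, 0 with the block and 1 without the 9 libraries with high X tiles. It was 1 to 3 with 1 library left out (1 without Type5b replicate 3 or Type6 replicate 2). For Type7 against Type6 it was 1, with 2 with 1 site per tile, 2 by limma, 2 with the block and 0 in the fit of those stages alone, and 0 to 2 with 1 library left out (0 without Type6 replicate 2, Type7 replicate 2 or Type7 replicate 3, and 2 without Type6 replicate 1 or 3). For the earlier stages it was 0, with 1 without the 9 libraries (chr6:52113301-52113400, 32.8 points higher in Type3b than in Type3a, adjusted p = 0.0351). Without those libraries Type6 keeps 1 library, which is assumed to vary like the others. The 4 settings of the dispersion prior, tried after the data were seen, gave 7, 5, 3, 1 and 0 as well. The replicate numbers share only a number, so a call lost under the block is no measure of its size. Larger or stricter tiles leave fewer Hox tiles to test; otherwise the cause was not tested.

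Over all tiles, Type5b against Type5a had 3318 calls, with 1025 under the block, 163 in the fit of those stages alone, 2117 at 10 reads and 11121 with 1 site. Type6 against Type5b had 1790, with 1150 at 10 reads, 609 with at most 10 reads counted per site, 4911 with 1 site, 912 by limma and 1 in those stages alone. Type7 against Type1 had 10441, with 32250 with 1 site and 6460 in those stages alone, and Type7 against Type6 had 885, with 525, 368, 1774 and 1 at 10 reads, at most 10 reads, 1 site and those stages alone. The earlier stages had 348, with 156, 13, 105, 802, 138, 1, 1787 and 615 at 10 reads, at most 10 reads, 1000-bp tiles, 1 site, limma, those stages alone, the block and without the 9 libraries.

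The HoxA level difference between Type7 and Type1 was 22.4 points, with 15.4 in 200-bp tiles, 10.5 in 1000-bp tiles, 14 with 1 site per tile, 10.6 over every tile a library measured and 12.4 without the 9 libraries, and 12.0 (without Type7 replicate 3) to 28.4 (without Type7 replicate 2). By construction it follows the share of averaged tiles that lie in the block, 6 of 23 common tiles as reported. Of the 132 tiles measured in any library 7 lie in the block. Over every tile the share differs by library, because each library averaged only the tiles it measured. For HoxB it was 0.36 points, with 1.14 at 10 reads, 1.05 over every tile and 1.21 with reads pooled. For HoxC it was -1.67, with -2.82 with 1 site and 1.62 over every tile, and -2.55 to -1.24 with 1 library left out. For HoxD it was -0.55, and -1.53 to -0.40 with 1 library left out.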

Other observations

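Outside the block 8 of 409 Hox tiles reached 80% in at least 1 library, 4 in HoxB and 4 in HoxC; these and the tiles below were chosen after their values were seen. In HoxC the tile at chr15:102857401-102857500 read 0, 81.9 and 40% in Type7, and 39.1% in the 1 Type1 library that measured it. The tile at chr15:102858001-102858100 read 84.5 and 0% in Type7 and 0 and 8.89% in Type1, a difference of 37.8 points that was not called (quasi-binomial test, adjusted p = 0.252).

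In HoxB the tile at chr11:96126401-96126500 read 87.9 and 100% in Type6 replicates 1 and 2, over 33 and 15 reads, and 0% in the 1 Type5b library that measured it; it was also 0% in the 1 Type7 library. The tile at chr11:96110101-96110200 read 94.7% in Type6 replicate 2 and 0% in both Type7 libraries that measured it. In HoxC the tile at chr15:102793001-102793100 read 0, 90.5 and 0% in Type6, against 0% in all 3 Type5b libraries, and the tile at chr15:102846001-102846100 read 87.8% in Type4 replicate 5, with 0 to 23.0% in the other Type4 libraries. Beyond the HoxA window, the tile at chr6:52357901-52358000 read 100% in the 1 Type7 library that measured it, 93.0 and 98.4% in Type6 and 0% in the 1 Type1 library.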
